A study of Mus musculus with 8 samples.

Results

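The TRAF adaptors and cIAP ligases were taken as 9 named genes: the TNF receptor associated factor genes Traf1 to Traf6, the genes Birc2 and Birc3 of the ubiquitin ligases cIAP1 and cIAP2, and Xiap, the gene of a related inhibitor of apoptosis protein. All 9 have a row among the 53715 genes of the deposited table, whose values are RPKM, read counts scaled to the length of the gene and the size of the library. Genes entered the test if 2 or more of the 8 libraries had an RPKM of at least 1, which 13475 genes met. Of the 9 members, 6 met it, and Traf1 did so through 3 libraries, both of zfCTT and mSTING replicate 1. Traf5, Birc2 and Xiap did not reach it, and their values are given without a test over these genes.

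TRAF proteins bind the tails of TNF receptors and CD40 and the mitochondrial adaptor MAVS, and act through further adaptors below Toll-like and IL-1 receptors. Most of them carry a RING domain that can act as a ubiquitin ligase. TRAF2 brings cIAP1 and cIAP2 to the receptor, where their ubiquitin chains recruit the kinases TAK1 and IKK and so start NF-κB signalling. In resting cells TRAF3, TRAF2 and the cIAPs together keep the kinase NIK low, which restrains the alternative NF-κB arm. TRAF6 does a comparable job below Toll-like and IL-1 receptors, the pathways macrophages are best known for. Published work on STING describes a TRAF6-binding motif in the C-terminal tail of the zebrafish protein.

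All cells were Sting-/- mouse macrophages kept for 4 h with CMA (10-carboxymethyl-9-acridanone) at 500 µg per ml, a small molecule that activates mouse STING. No library shows untreated cells. The zfCTT group carried mSTING-zfCTT, mouse STING with the tail of the zebrafish protein. The mSTING group carried mouse STING, and the dCTT group carried mSTING-dCTT, the form without the C-terminal tail. The no_transgene group is labelled with transgene none, and its titles name MSCV2.2, a retroviral vector. Each group has 2 libraries of poly(A) RNA, read from a single end. The labels say neither whether a line was a clone or a pool nor whether libraries with 1 transgene stem from different cultures. The p-values therefore measure only how far these libraries spread, and that spread may be technical. The 3 comparisons that contain zfCTT share its libraries, and the 3 comparisons over no_transgene share that control.

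Depth recovered from the steps of the RPKM values was 20.1 to 171 M reads, at 20.1 and 34.8 M in zfCTT and 27.7 and 101 M in no_transgene. On the first principal component of the tested genes, with 38.2% of the variance, zfCTT replicate 1 lay at −65.4 and zfCTT replicate 2 at −19.3, against −1.29 to 29.7 for the other libraries. The second component held nearly as much, 37.0%. On it no_transgene replicate 1 lay at 59.7 and dCTT replicate 1 at 30.7, against −30.1 to 0.949 for the other libraries. Tmem173, the gene of STING, was at 14.2 and 20.6 RPKM in zfCTT, 10.6 and 22.2 in mSTING, 22.7 and 14.98 in dCTT and 3.23 and 2.42 in no_transgene, lowest in the cells without a transgene. Of the macrophage markers, Cd68 was at 225 to 450 RPKM and Csf1r at 75.6 to 121, while Mertk stayed at or below 0.374. The sum over the 12 macrophage markers was 1130 and 1452 RPKM in zfCTT, 1339 and 1625 in mSTING, 1608 and 1724 in dCTT and 1892 and 1969 in no_transgene. This sum follows its most abundant genes, and single markers ran in both directions. Tyrobp was at 272 and 404 RPKM in zfCTT against 604 and 803 in no_transgene, and Lyz2 at 101 and 146 against 486 and 180. Fcgr1 was higher in zfCTT, at 34.04 and 21.6 RPKM against 9.83 and 5.38, as was Spi1, at 230 and 241 against 142 and 201. Cd3e, Cd8a, Ncr1 and Ly6g were at 0 in every library, and the T and NK cell markers summed to at most 1.85 RPKM, nearly all of it Lck. The markers of B cells, neutrophils, dendritic cells and of fibroblasts and epithelium summed to at most 0.800 RPKM per list and library. The part of these differences in the results was not tested, and in bulk RNA fewer cells of a type and less RNA per cell cannot be told apart.

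Traf1 had the largest difference between zfCTT and the other groups among the tested members. TRAF1 is the TRAF without a RING domain; it pairs with TRAF2 and the cIAPs, and its gene is a well-known target of NF-κB. Traf1 was at 21.8 and 5.51 RPKM in zfCTT, 1.12 and 0.386 in mSTING, 0.208 and 0.123 in dCTT and 0.0736 and 0.106 in no_transgene. The 4 groups did not overlap with each other, and their means ran from high to low in the order zfCTT, mSTING, dCTT, no_transgene. How many of all tested genes separate the 4 groups was not counted. The level in no_transgene replicate 1 rests on 18 reads, whose 95% Poisson interval of 0.0436 to 0.116 RPKM covers counting error only. The intervals of dCTT replicate 2, 0.106 to 0.142, and no_transgene replicate 2, 0.0861 to 0.130, overlap. Counting error alone could therefore close the gap between dCTT and no_transgene. The zfCTT values rest on 3851 and 1690 reads.

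Against no_transgene, Traf1 rose by 3.48 ± 0.54 on the log2(RPKM + 1) scale (± SE here and below) with an adjusted p of 0.0459 in limma. That scale understates the change of a gene with such low values in the control. The ratio of the group means, 13.6 ± 11.5 RPKM in zfCTT over 0.0900 ± 0.0232 RPKM in no_transgene (SD, n = 2 each), was 152. The library ratios ran from 51.7, the lowest zfCTT over the highest no_transgene library, to 296 for the opposite extremes. The call depended on single libraries. It held without zfCTT replicate 2, where the log2 change was 4.39 with an adjusted p of 0.0265 in limma. Without zfCTT replicate 1 the change was 2.58 and the adjusted p was 0.167. The adjusted p was 0.0718 and 0.0715 without mSTING replicate 1 and 2, 0.111 and 0.114 without dCTT replicate 1 and 2, and 0.245 and 0.117 without no_transgene replicate 1 and 2, at changes of 3.46 to 3.50. It was 0.141 with no filter on low values, 0.0845 in voom on recovered reads and 0.182 when the 4 libraries compared were fitted alone.

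The zfCTT libraries differed 3.95-fold from each other in Traf1, replicate 1 over replicate 2. Between these libraries, 1.25% of the tested genes had a larger difference on the log2(RPKM + 1) scale. The mSTING libraries differed 2.91-fold in the same direction.

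**Figure D1:**
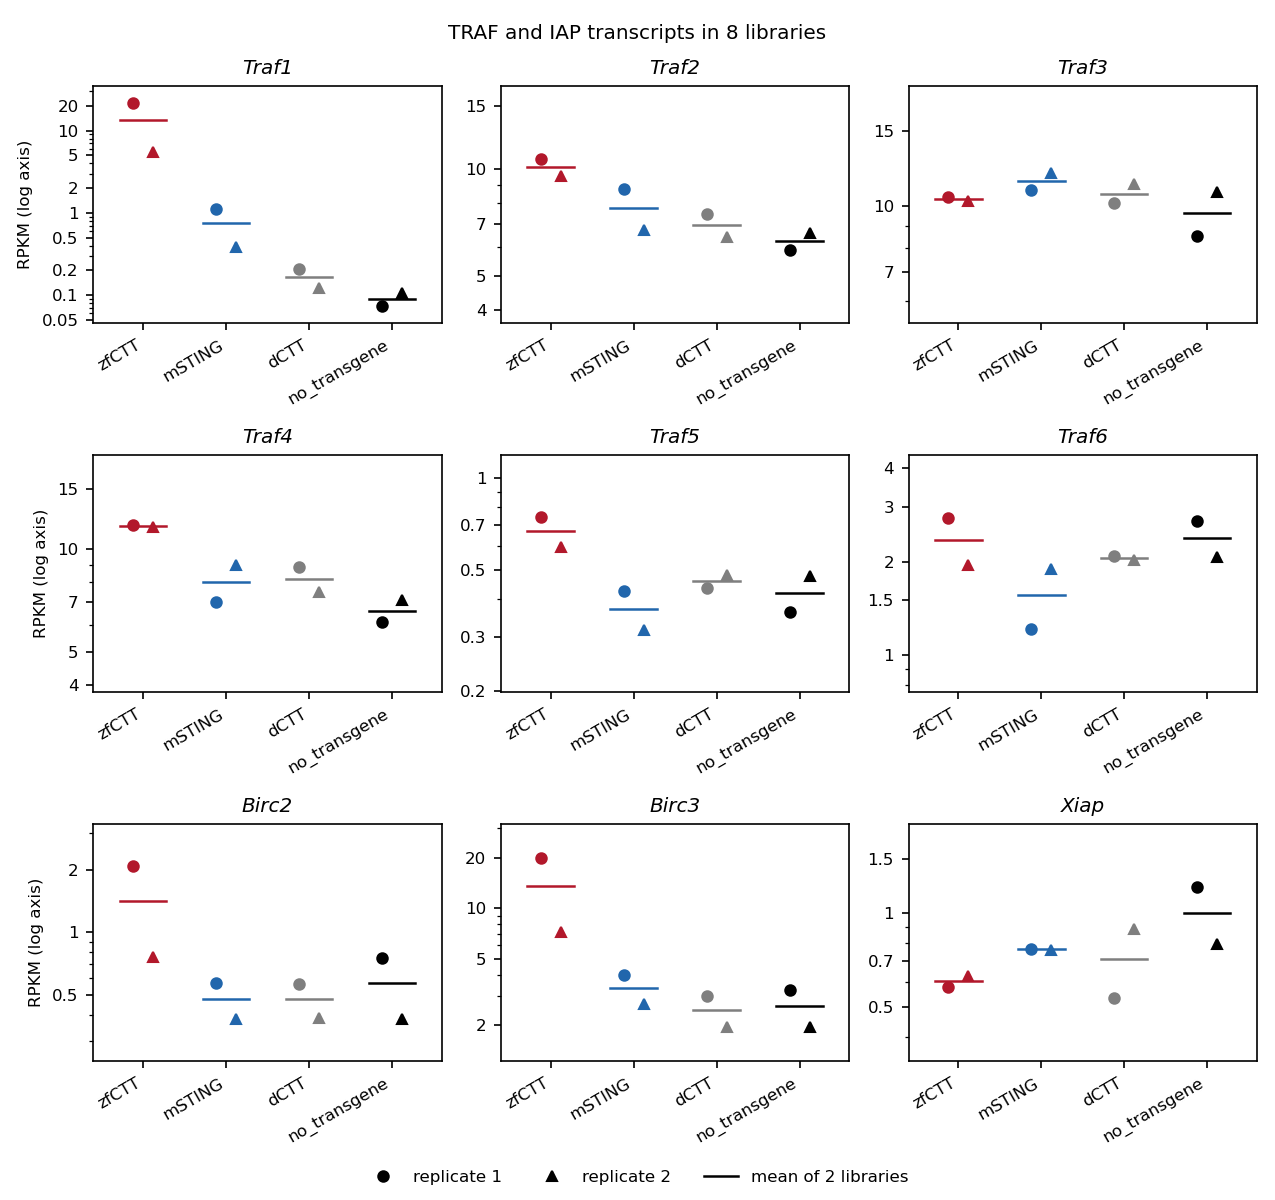
RPKM of the 9 TRAF and IAP genes in each library, on a log axis with its own range in each panel; circles are replicate 1, triangles replicate 2 and lines the mean of 2 libraries. Traf1 spans 0.0736 to 21.8 RPKM without overlap between groups, while Traf3 stays between 8.52 and 11.98 RPKM in every library.

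Traf1 lies on chromosome 2 (GRCm38, chr2:34941750-34961772, minus strand), with 8819 bases of exon sequence in the GENCODE M21 gene models. The 250 bases before its RefSeq start (GRCm38.p6, chr2:34961773-34962022, minus strand) are shown because Traf1 is the member that passed the test. The window holds no match, on either strand, to the NF-κB consensus, to the core of the interferon-stimulated response element (GAAA, any 2 bases, GAAA) or to the AP-1 site TGANTCA, so no letter stands in capitals. These 3 motifs were kept after others had been looked at.
Traf1 promoter: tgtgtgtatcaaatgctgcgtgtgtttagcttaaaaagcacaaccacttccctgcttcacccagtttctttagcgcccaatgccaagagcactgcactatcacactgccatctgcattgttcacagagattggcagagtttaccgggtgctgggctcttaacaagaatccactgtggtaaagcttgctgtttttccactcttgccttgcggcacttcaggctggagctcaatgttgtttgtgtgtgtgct

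The NF-κB consensus matched 3.90% of 32851 RefSeq promoter windows of this length, the interferon element core matched 2.98% and TGANTCA matched 6.75%. Over the 12 windows of the 9 members, the single match was an NF-κB consensus at the end of the Traf3 window. It covers the bases from 10 to 1 before the start, in capitals in the last 60 bases of the window (GRCm38.p6, chr12:111166310-111166369, plus strand). It is shown because Traf3 is the member with the steadiest levels among those tested. A match is a string of letters, not a shown binding site, and a missing match says only that these letters are not in the window.
Traf3 promoter end: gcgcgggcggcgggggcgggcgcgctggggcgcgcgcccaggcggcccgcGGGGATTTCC

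The other TRAF genes differed less. TRAF2 is the ligase scaffold of TNF receptor complexes. Traf2 (GRCm38, chr2:25517982-25546940, minus strand) was at 10.7 and 9.54 RPKM in zfCTT, 8.78 and 6.73 in mSTING, 7.46 and 6.41 in dCTT and 5.89 and 6.60 in no_transgene. Both zfCTT libraries lay above all others, and the remaining groups overlapped with their neighbours in the order of means. How many of all tested genes have zfCTT above all other libraries was not counted, for this member or those below. Shares for pairs of groups are given further on. The difference over no_transgene was 0.62 ± 0.18 (adjusted p of 0.215 in limma).

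TRAF4 is studied mostly in cell polarity and embryonic development. Traf4 (chr11:78158499-78165589, minus strand) was at 11.8 and 11.6 RPKM in zfCTT, 6.99 and 9.02 in mSTING, 8.88 and 7.49 in dCTT and 6.10 and 7.12 in no_transgene. Both zfCTT libraries were again above the other 6, at nearly the same level as each other. The difference was 0.75 ± 0.18 over no_transgene (adjusted p of 0.139 in limma).

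TRAF3 is the adaptor that joins NIK to its ligases and also serves the interferon arm through the kinase TBK1. Traf3 (chr12:111166370-111267153, plus strand) was at 10.5 and 10.3 RPKM in zfCTT, 10.9 and 11.98 in mSTING, 10.2 and 11.3 in dCTT and 8.52 and 10.8 in no_transgene. The highest library was 1.41 times the lowest, and zfCTT lay inside the range of no_transgene. The difference over no_transgene was 0.11 ± 0.17 (adjusted p of 0.834 in limma), and its sign changed without no_transgene replicate 1, to −0.048.

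TRAF6 makes the ubiquitin chains below Toll-like and IL-1 receptors. Traf6 (chr2:101678429-101701669, plus strand) was at 2.76 and 1.95 RPKM in zfCTT, 1.22 and 1.90 in mSTING, 2.08 and 2.03 in dCTT and 2.70 and 2.07 in no_transgene. Its zfCTT and no_transgene libraries overlapped, with a difference of −0.018 ± 0.21 (adjusted p of 0.984 in limma), and the lowest values were those of mSTING. The sign of that difference changed, to 0.16 without zfCTT replicate 2 and to 0.12 without no_transgene replicate 1.

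TRAF5 resembles TRAF2 and serves some of the same receptors. Traf5 (chr1:191997205-192092559, minus strand) was at 0.743 and 0.592 RPKM in zfCTT, 0.427 and 0.318 in mSTING, 0.437 and 0.479 in dCTT and 0.363 and 0.478 in no_transgene, below the level for testing in every library. Both zfCTT libraries lay above the other 6. With all genes that had any reads in the fit, its difference over no_transgene was 0.23 ± 0.085 (adjusted p of 0.415 in limma). Of its exons, 270 bases overlap Mir3473c and Gm26879. Gm26879 lies on the opposite strand and had 0.425 to 0.759 RPKM, and without a stated strand setting reads of these genes cannot be told apart.

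Birc3 had the next largest difference in zfCTT and did not pass the test, which does not use the replicate numbers. With the replicate number as a block in the fit, Birc3 passed over no_transgene and over dCTT. Its product cIAP2 ubiquitinates RIPK1 at TNF receptors, and the gene is a known NF-κB target. Birc3 was at 19.8 and 7.19 RPKM in zfCTT, 4.00 and 2.67 in mSTING, 2.98 and 1.96 in dCTT and 3.25 and 1.97 in no_transgene. Both zfCTT libraries were above the other 6, whose groups overlapped with each other. The ratio of means over no_transgene was 5.17, with library ratios of 2.21 to 10.1. The log2 difference was 1.88 ± 0.45 with an adjusted p of 0.132 in limma, and 1.204 with an adjusted p of 0.513 without zfCTT replicate 1.

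Birc2 was also highest in zfCTT, at a lower level than Birc3. Its product cIAP1 is the ligase that keeps NIK low in resting cells. Birc2 was at 2.07 and 0.759 RPKM in zfCTT, 0.567 and 0.384 in mSTING, 0.565 and 0.387 in dCTT and 0.748 and 0.384 in no_transgene. Both zfCTT libraries lay above the other 6, the lower of them by 1.02 times only, and counts were 95 to 304 reads per library. In the fit over all genes with any reads, the difference over no_transgene was 0.58 ± 0.29 (adjusted p of 0.569 in limma).

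Xiap, whose product inhibits caspases directly, ran the other way. The gene (chrX:42059679-42109656, plus strand) was at 0.579 and 0.628 RPKM in zfCTT, 0.767 and 0.762 in mSTING, 0.535 and 0.891 in dCTT and 1.21 and 0.793 in no_transgene. Both zfCTT libraries lay below both of mSTING and both of no_transgene, and inside the range of dCTT. The difference over no_transgene in the fit over all genes with any reads was −0.31 ± 0.16 (adjusted p of 0.585 in limma).

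Birc2 and Birc3 are neighbours on the minus strand of chromosome 9 (GRCm38, chr9:7818227-7837064 and chr9:7848699-7873186), 11634 bases apart with 0 annotated genes between them. The ratio of Birc3 to Birc2 RPKM was 9.57 and 9.47 in zfCTT, 7.06 and 6.95 in mSTING, 5.28 and 5.07 in dCTT and 4.35 and 5.13 in no_transgene. The libraries of zfCTT, of mSTING and of dCTT lay close together in this ratio, and those of no_transgene lay further apart. The zfCTT and mSTING groups overlapped with no other group, while dCTT and no_transgene overlapped. The Birc2 values below the line of this ratio rest on 95 to 304 reads. Their 95% Poisson interval was 0.630 to 0.907 RPKM in zfCTT replicate 2 and 0.326 to 0.449 RPKM in mSTING replicate 2. This counting error was not carried into the ratio, and how many other gene pairs separate the groups was not counted. Between the zfCTT libraries, Birc3 differed 2.75-fold and Birc2 2.72-fold, so the ratio was nearly equal in both. The ratio is a description without a test. Of the 50-base stretches of Birc3 transcripts, 7.38% also occur in other genes, mainly Gm7019 and Birc2, and Birc2 shares 1.49% of its own. Gm7019 was at 11.5 and 3.35 RPKM in zfCTT, 2.64 and 1.199 in mSTING, 1.85 and 0.996 in dCTT and 2.05 and 1.29 in no_transgene, so both genes are uncertain to the extent that the counting split such reads.

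The 250 bases before the Birc3 start (GRCm38.p6, chr9:7873171-7873420, minus strand) are shown as the counterpart to the Traf1 window, since these genes had the largest differences among the tested members. The last 16 of its bases lie in an exon of the longer GENCODE model of Birc3. It too holds none of the 3 motifs.
Birc3 promoter: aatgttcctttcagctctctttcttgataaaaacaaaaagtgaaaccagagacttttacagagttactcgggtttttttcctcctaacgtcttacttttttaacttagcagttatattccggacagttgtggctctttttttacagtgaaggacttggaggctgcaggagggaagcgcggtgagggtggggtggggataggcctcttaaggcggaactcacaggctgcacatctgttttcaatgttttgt

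Within a library, the make-up of the family shifted in zfCTT. Traf1 made up 37.3% and 13.9% of the summed RPKM of the 6 TRAF genes in zfCTT, 3.81% and 1.27% in mSTING, 0.710% and 0.443% in dCTT and 0.311% and 0.391% in no_transgene. The TRAF sum itself was 58.3 and 39.6 RPKM in zfCTT, 29.4 and 30.3 in mSTING, 29.2 and 27.8 in dCTT and 23.6 and 27.2 in no_transgene. Traf3 was the highest TRAF gene in all 6 libraries of the other groups, whereas Traf1 led in zfCTT replicate 1 and Traf4 in zfCTT replicate 2, where Traf1 came after Traf4, Traf3 and Traf2. Of the summed RPKM of Birc2, Birc3 and Xiap, Birc3 held 88.2% and 83.8% in zfCTT, 75.0% and 70.0% in mSTING, 73.0% and 60.6% in dCTT and 62.4% and 62.6% in no_transgene. The zfCTT libraries were the highest in each of these shares and sums, and the shares have no test of their own.

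**Figure D2:**
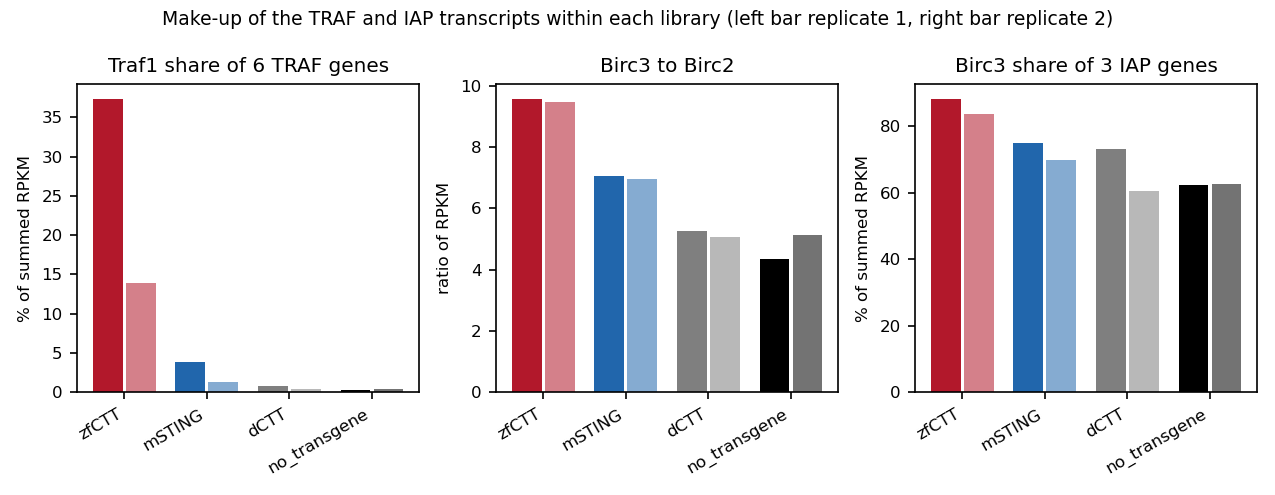
Share of Traf1 in the summed RPKM of 6 TRAF genes, ratio of Birc3 to Birc2 RPKM and share of Birc3 in the summed RPKM of 3 IAP genes, 1 bar per library from 0 (left bar replicate 1, right bar replicate 2). The zfCTT bars are the highest in each panel, at 37.3% and 13.9%, 9.57 and 9.47, and 88.2% and 83.8%.

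Counted together, 1 of the 6 tested members passed the threshold in zfCTT over no_transgene, Traf1, where 1.08% of the 13475 tested genes did with 0.928% upwards and 0.156% downwards. At an unadjusted p under 0.05 it was 4 of 6 members, Traf1, Traf2, Traf4 and Birc3, against 13.4% of the tested genes. In 4 of the 6 tested members both zfCTT libraries lay above both no_transgene libraries and in 0 below. Over all tested genes 18.8% lay above in this way, 20.8% below and 39.6% in either direction. With Traf5, Birc2 and Xiap included, 6 of 9 members lay above and 1 below. That count has no matching share, because the shares cover tested genes only. The median difference of the tested members was 0.68, against −0.042 for all tested genes. The counts of tested members and this median include Traf1, which entered the tested set only through libraries where it was high.

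Over mSTING, 0 of 6 members passed in limma, where 0.119% of the tested genes did (0.111% upwards and 0.00742% downwards), 0 passed in voom on recovered reads, and 3 of 6 had an unadjusted p under 0.05, against 11.0% of the tested genes. The differences were 2.83 ± 0.54 for Traf1 (adjusted p of 0.197), 1.61 ± 0.45 for Birc3 (0.381), 0.51 ± 0.18 for Traf4 (0.431), 0.40 ± 0.21 for Traf6 (0.499), 0.35 ± 0.18 for Traf2 (0.491) and −0.12 ± 0.17 for Traf3 (0.777), all in limma. The groups did not overlap in any of the 6, with 5 above and 1, Traf3, below. Over all tested genes 24.9% lay above and 24.4% below, 49.4% together. The counts of members include Traf1, which entered the tested set only through libraries where it was high, those of zfCTT among them. The ratio of mean Traf1 levels was 18.1, and its library ratios ran from 4.90 to 56.4. Without zfCTT replicate 1 the Birc3 difference was 0.93, with an adjusted p of 0.9995 in limma.

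Over dCTT, 0 of 6 members passed in limma, where 1.08% of the tested genes did (0.913% upwards and 0.171% downwards). Traf1 missed the threshold with 3.39 ± 0.54 at an adjusted p of 0.0503. It passed in voom on recovered reads, at an adjusted p of 0.0396, and without zfCTT replicate 2 in limma, at 4.29 and 0.0230. At an unadjusted p under 0.05 it was 4 of 6 members, against 12.7% of the tested genes. Birc3 differed by 1.93 ± 0.45 (adjusted p of 0.127), Traf2 by 0.49 ± 0.18 (0.344) and Traf4 by 0.48 ± 0.18 (0.356), and Traf6 and Traf3 overlapped, at 0.13 ± 0.21 (0.857) and −0.034 ± 0.17 (0.959), all in limma. Both zfCTT libraries lay above both dCTT libraries in 4 of 6 members and below in 0, against 20.1% and 24.7% of the tested genes, 44.8% together. Here too the counts of members include Traf1, which entered the tested set through the zfCTT libraries.

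**Figure D3:**
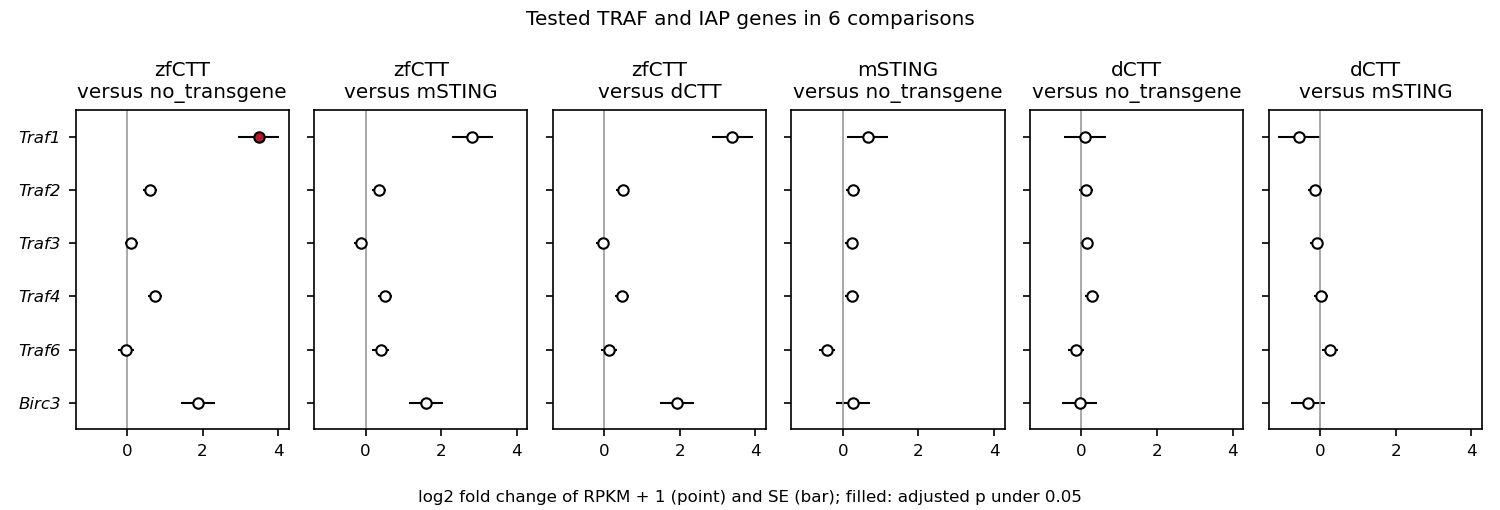
Difference of each tested member in 6 comparisons, in log2 units of RPKM + 1, as points with bars of 1 SE; filled points have an adjusted p under 0.05. Traf1 at 3.48 in zfCTT versus no_transgene is the single filled point, and Birc3 lies at 1.61 to 1.93 in the 3 comparisons with zfCTT.

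In mSTING over no_transgene, 0 of 6 members passed in limma or voom, 0 had an unadjusted p under 0.05, and 0% of the tested genes passed. Traf1 was 8.38-fold higher by its means, with library ratios of 3.63 to 15.3, which is 0.65 ± 0.54 on the log2(RPKM + 1) scale (adjusted p of 0.840 in limma). Both mSTING libraries were above both no_transgene libraries in 3 of 6 members, Traf1, Traf2 and Traf3, and below in 1, Traf6, at −0.41 ± 0.21. Over all tested genes these shares were 15.3% and 17.0%, 32.3% together. The counts of members include Traf1, which entered the tested set only through libraries where it was high, mSTING replicate 1 among them.

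In dCTT over no_transgene, 0 of 6 members passed in limma or voom, 0 had an unadjusted p under 0.05, and 0% of the tested genes passed. The differences lay between −0.14 for Traf6 and 0.27 for Traf4, with an adjusted p of 1 in limma for each. Traf1 and Traf4 were above in both dCTT libraries, 2 of 6 members against 7.75% of the tested genes, and 0 members were below against 6.69%, 14.4% together. That count includes Traf1, which entered the tested set only through zfCTT and mSTING libraries. In the dCTT and no_transgene libraries Traf1 was at 0.0736 to 0.208 RPKM, below the level for testing. Traf1 was 1.84-fold higher by its means there, at 0.165 ± 0.0599 RPKM in dCTT and 0.0900 ± 0.0232 RPKM in no_transgene (SD, n = 2 each).

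In dCTT over mSTING, 0 of 6 members passed in limma or voom, 0 had an unadjusted p under 0.05, and 0% of the tested genes passed. Traf1 was lower in both dCTT libraries, at −0.56 ± 0.54, and Traf6 was higher in both, at 0.27 ± 0.21, with an adjusted p of 0.9999 in limma for each. Over all tested genes 12.8% were lower and 16.2% higher in this way, 29.0% together. Traf1 entered the tested set only through libraries where it was high, mSTING replicate 1 among them.

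In zfCTT over no_transgene, where 1.08% of all tested genes were called and 13.4% had an unadjusted p under 0.05, 3 of the 8 lists of genes around these adaptors held called genes. Among 8 tested TNF receptor superfamily receptors that bind TRAFs, 1 (12.5%) rose and 0 fell, 2 had an unadjusted p under 0.05, and the median was −0.012. It was Cd40, the co-stimulatory receptor whose tail binds TRAF2, TRAF3 and TRAF6. Cd40 was at 38.2 and 17.3 RPKM in zfCTT, 5.66 and 1.33 in mSTING, 1.11 and 0.851 in dCTT and 1.24 and 0.833 in no_transgene, with zfCTT above the other 6 libraries. Its difference was 3.72 ± 0.54 over no_transgene (adjusted p of 0.0433) and 3.76 ± 0.54 over dCTT (adjusted p of 0.0404), both in limma.

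Among 24 tested ubiquitin enzymes and TRAF regulators, 2 (8.33%) rose and 0 fell, 4 had an unadjusted p under 0.05, and the median was 0.10. Tnip1, whose product restrains NF-κB together with the ubiquitin editor A20, was at 67.0 and 61.1 RPKM in zfCTT, against 18.9 and 25.8 RPKM in no_transgene (1.49 ± 0.23, adjusted p of 0.0459 in limma). Trafd1, which encodes an interferon-induced TRAF-type zinc finger protein, was at 51.2 and 35.1 RPKM in zfCTT, against 3.38 and 4.11 RPKM in no_transgene (3.20 ± 0.50, adjusted p of 0.0459 in limma). In both genes the zfCTT libraries lay above the no_transgene libraries without overlap. The mSTING libraries did so too, at 47.0 and 35.3 RPKM for Tnip1 and 26.2 and 7.71 for Trafd1, without passing the test. Over dCTT, 0 of these 24 passed in limma, 4 had an unadjusted p under 0.05 and 1 passed in voom.

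Among the 11 NF-κB subunits and inhibitors, 2 (18.2%) rose and 0 fell, with a median of 1.12. In the same list 8 had an unadjusted p under 0.05, 10 differences were positive and 1 gene passed in voom. Nfkbia, the gene of the inhibitor IκBα, was at 209 and 176 RPKM in zfCTT, against 46.7 and 53.4 RPKM in no_transgene (1.92 ± 0.19, adjusted p of 0.0196 in limma). Nfkbie, the gene of IκBε, was at 29.98 and 14.3 RPKM in zfCTT, against 1.35 and 2.51 RPKM in no_transgene (2.92 ± 0.41, adjusted p of 0.0374 in limma). Both inhibitor genes were above in both zfCTT libraries. They were also above no_transgene in both mSTING libraries, at 110 and 91.6 RPKM for Nfkbia and 9.50 and 5.37 for Nfkbie. In mSTING over no_transgene, 5 of these 11 genes had an unadjusted p under 0.05, against 3.47% of the tested genes, and 0 passed in limma. In zfCTT over dCTT, Nfkbia also rose, by 1.62 ± 0.19 (adjusted p of 0.0248 in limma), the single limma call among these 11 there. In voom 2 of the 11 passed in that comparison.

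In zfCTT over no_transgene, 0 members passed in limma or in voom in each of 5 other lists. These were the Toll-like and IL-1 receptor adaptors and kinases (12 tested, 3 with an unadjusted p under 0.05, median −0.12), the TNF receptor complex partners (8 tested, 2 such, median 0.10) and the kinases downstream of TRAFs (12 tested, 2 such, median 0.14). The others were the further IAP genes and IAP antagonists (9 tested, 2 such, median 0.23) and the further genes with a TRAF or MATH domain (5 tested, 0 such, median −0.16). Of the adaptors, Myd88, which couples Toll-like receptors to IRAK kinases and TRAF6, was at 81.3 and 59.6 RPKM in zfCTT and 37.7 and 34.2 RPKM in no_transgene (0.94 ± 0.23, adjusted p of 0.138 in limma). Sqstm1, the gene of the TRAF6-binding scaffold p62, was at 106 and 123 RPKM in zfCTT and 34.8 and 91.1 RPKM in no_transgene (0.998 ± 0.467, adjusted p of 0.423 in limma). In both genes the zfCTT libraries lay above the no_transgene libraries without passing the test.

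The remaining named genes of these lists, with 1 exception, differed by −0.16 to 0.34. They were named for their mean RPKM, not for their differences. Besides Myd88, other genes of the adaptor, TNF receptor complex and kinase lists had an unadjusted p under 0.05 in limma. Irak2 (1.48), Cflar (1.39), Ikbke (0.68) and Rnf31 (0.60) were higher, and Irak1 (−0.86) and Ikbkg (−0.54) lower, without passing the test. Tradd and Rbck1, partners in the TNF receptor complex, differed by 0.019 ± 0.20 and 0.042 ± 0.23. Tab1 and Map3k3, which belong to the kinase step, differed by −0.060 ± 0.20 and 0.028 ± 0.22, and Traf7 and Spop, which share a domain or name with the TRAFs, by 0.34 ± 0.19 and −0.16 ± 0.35. That exception was Xaf1, the gene of an interferon-induced antagonist of XIAP. Xaf1 was at 10.4 and 4.55 RPKM in zfCTT, 2.43 and 0.975 in mSTING, 0.418 and 0.263 in dCTT and 0.746 and 0.301 in no_transgene. Xaf1 rose by 2.57 ± 0.41 over dCTT (adjusted p of 0.0471) and missed the threshold over no_transgene, at 2.40 ± 0.41 (adjusted p of 0.0539), both in limma.

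**Figure D4:**
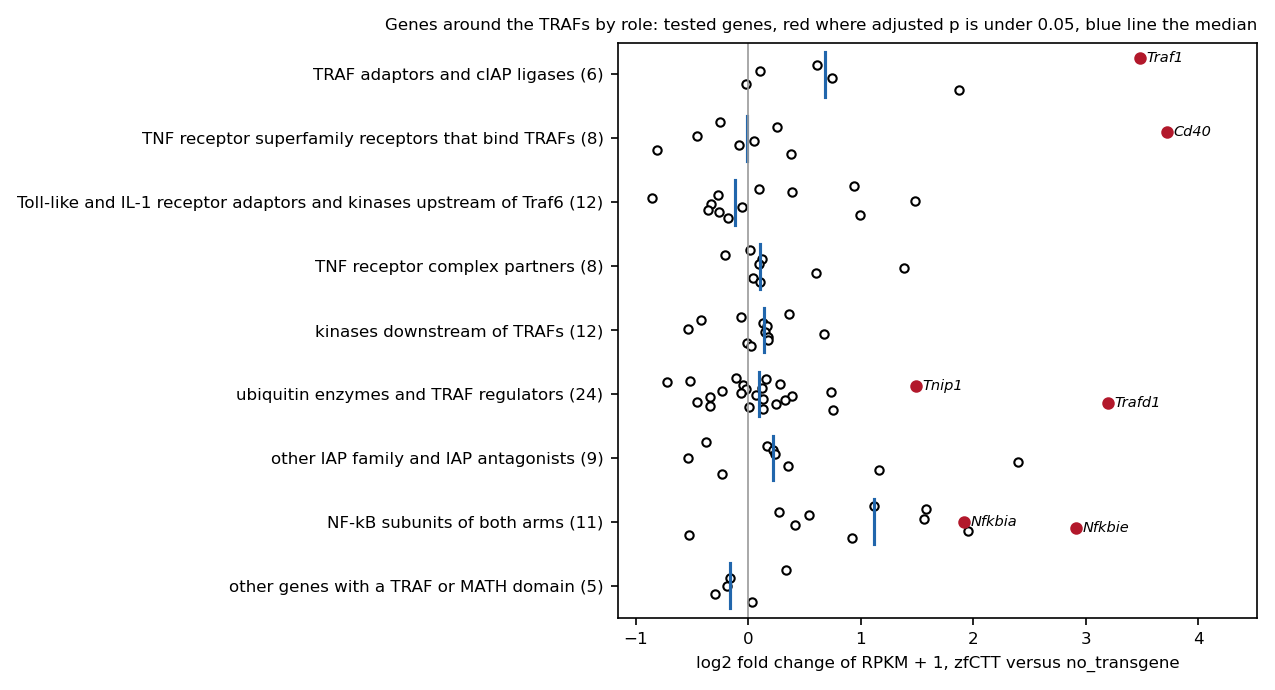
Differences in zfCTT versus no_transgene, in log2 units of RPKM + 1, for the tested genes of the TRAF and IAP set and of 8 lists around it (number tested in brackets); blue lines are medians and red points have an adjusted p under 0.05. The 5 red genes outside the set and Traf1 sit at 1.49 to 3.72, and the list medians lie between −0.16 and 1.12.

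These list calls depended on the method and on single libraries. In voom on recovered reads the adjusted p over no_transgene was 0.0675 for Cd40, 0.0538 for Tnip1, 0.0612 for Trafd1 and 0.0592 for Nfkbie, all past the threshold in limma, and 0.0303 for Nfkbia, which passed in both. Over dCTT, Cd40, Nfkbia and Xaf1 passed in voom too, at 0.0396, 0.0193 and 0.0409. Of the 8 TNF receptor complex partners, 1 passed in voom over dCTT and 0 in limma. Over the 8 fits that each leave out 1 library, Nfkbie stayed past the threshold over no_transgene in 3, Cd40, Trafd1 and Nfkbia in 2 each and Tnip1 in 0, with an adjusted p of up to 0.325 in limma. The fits that kept Cd40, Trafd1 and Nfkbia were those without mSTING replicate 1 or 2, and Nfkbie also held without zfCTT replicate 2. Over dCTT, Cd40 and Nfkbia held in the same 2 fits and Xaf1 in 1, that without zfCTT replicate 2. Over all genes, voom called 48 in zfCTT over no_transgene, 8 over mSTING and 157 over dCTT. In zfCTT over mSTING, 0 members of any of the 8 lists passed in limma or in voom. There 0 to 5 per list had an unadjusted p under 0.05, against 11.0% of the tested genes. In the other 3 comparisons 0 list members passed in limma or in voom, with 0 to 5 per list at an unadjusted p under 0.05. The shares of all tested genes were 3.47% in mSTING over no_transgene, 0.267% in dCTT over no_transgene and 2.49% in dCTT over mSTING. Each count of 5 was that of the 11 NF-κB subunits and inhibitors, over mSTING and in mSTING over no_transgene.

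Across the 8 libraries, the tested genes with an official symbol whose log2(RPKM + 1) values ran most like Traf1 were Rapgef2 and Fscn1 (Pearson r of 0.999 each), Enpp4, Gbp5 and Cflar (0.998 each). Cflar encodes c-FLIP, a caspase-8 inhibitor, and was at 5.84 and 2.90 RPKM in zfCTT, 1.45 and 1.08 in mSTING, 0.885 and 0.925 in dCTT and 0.979 and 0.963 in no_transgene. Those most like Birc3 were Cmtr1 (0.994), Ifit2 (0.991), Mcm10 (0.990), Jarid2 (0.989) and Golga3 (0.986). Between members, r was 0.977 for Traf1 and Birc3, 0.907 for Traf1 and Traf2, 0.810 for Traf1 and Traf4 and 0.0365 for Traf1 and Traf3. These values describe 8 points that share library depth and group, and they follow the high zfCTT libraries, replicate 1 above all.

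**Figure D5:**
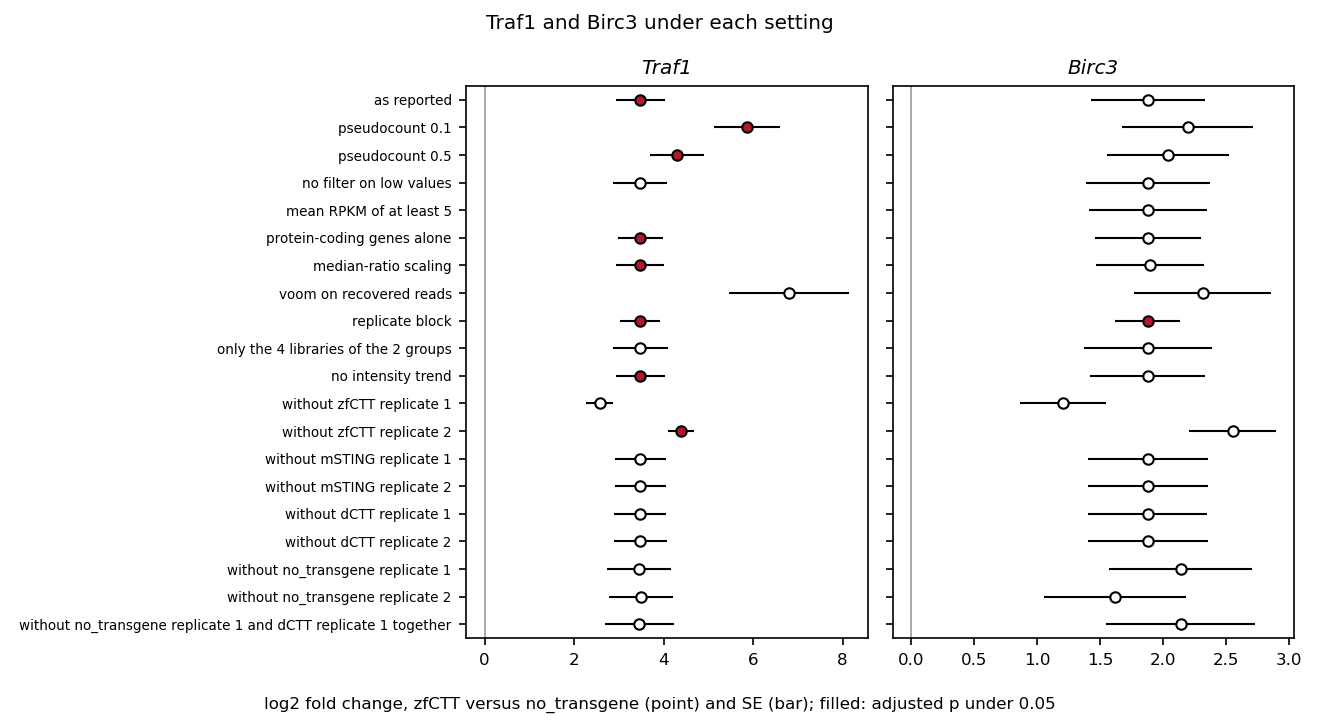
Difference of Traf1 and of Birc3 in zfCTT versus no_transgene under each setting, in log2 units with bars of 1 SE (each panel has its own range); filled points have an adjusted p under 0.05. Traf1 stays between 2.58 and 6.81 and Birc3 between 1.204 and 2.55, and Traf1 has no point at a mean RPKM of at least 5 because its own mean is 3.66.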

How the data were processed

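Poly(A) RNA-seq of 8 libraries was analysed in 4 groups of 2, set by transgene, with replicate numbers from the titles. The authors deposited RPKM for 53715 genes. Cutadapt 1.16, HISAT2 2.1.0 and the builds GRCm38 and mm10 are named, without their roles, per the submitters' processing notes. Not given in the sources used here are the counting tool, the annotation release and whether strand was used. Symbols, positions and exon lengths came from GENCODE M21 (53620 identifiers matched, 95 did not) and promoter sequences from RefSeq on GRCm38.p6. Depth was read from the steps of RPKM times exon length: 95.9% to 97.3% of the values up to 1000 reads came out within 0.05 of a whole read. Counting intervals and depths cover counting error only.

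RPKM are not counts, so log2(RPKM + 1) was tested with limma 3.58.1 in R 4.3.3. The 13475 genes at 1 RPKM or above in 2 or more libraries were kept. The fit held all 8 libraries, 1 mean for each group and 4 residual degrees of freedom. The test was moderated with an intensity trend and two-sided, with Benjamini-Hochberg adjustment over all tested genes within each of 6 comparisons at 0.05. An exact permutation of 2 against 2 libraries cannot reach that level and was not run. The method was tested on simulated data, with changes placed only in genes averaging at least 5 RPKM. Traf1, with a mean of 3.66 RPKM, lies outside that setting. No p was adjusted over the members alone. Errors are SD over libraries beside levels and SE from the fit beside differences. Called means past the threshold.

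The members and lists were chosen with earlier results of these data known. All members are named. Of each pathway list up to 4 genes past the threshold in any comparison were named, or, with none, the 2 with the highest mean RPKM. For Traf1 and Birc3 the 5 most similar genes were named by Pearson r. Naip7 and Septin4 of the IAP list were not matched to a row. Motifs were searched on both strands. The 19 other settings were pseudocounts of 0.1 and 0.5, no filter, a mean RPKM of at least 5, protein-coding genes alone, median-ratio scaling, voom on recovered reads, the replicate number as a block, the 4 libraries compared alone, no trend, and libraries left out singly or as a pair.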

Additional observations from a re-analysis of the deposited data

How the results depend on the processing

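The number of members past the threshold in zfCTT over no_transgene, 1 as reported, was 0 with no filter, among genes averaging 5 RPKM or more (which leaves Traf1 out), with voom, with the 4 libraries alone and without no_transgene and dCTT replicate 1 together, and 0 to 1 over fits without 1 library. In zfCTT over dCTT, 0 as reported, it was 1 with pseudocounts of 0.1 and 0.5, protein-coding genes alone, median-ratio scaling and voom, and 0 to 1 over fits without 1 library. It was 0 in the other 4 comparisons under every setting run. The adjusted p of Traf1 over no_transgene ranged from 0.0125 with protein-coding genes to 0.417 without the pair. Over all genes, 146 called in zfCTT over no_transgene became 0 to 432, 16 over mSTING became 0 to 63, and 146 over dCTT became 0 to 409, while 0 became up to 16 in mSTING over no_transgene and up to 14 in dCTT over mSTING.

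A replicate block gave 2 members, Traf1 and Birc3, in zfCTT over no_transgene and over dCTT, with an adjusted p of 0.0289 and 0.0259 for Birc3 in limma. The numbers were not taken as pairs, because the labels do not tie equal numbers to a shared batch. Deviations of same-numbered libraries correlated at 0.0318 to 0.762 over the 6 pairs of groups, all positive. Birc3 and Birc2 were higher in replicate 1 than in replicate 2 in every group. Whether equal numbers mark a shared batch was not tested, and whether Birc3 passes depends on this choice.

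Of 672 differences of tested members under other settings, 635 kept their sign and side of the threshold, 11 no longer passed, 9 newly passed and 17 changed sign. None of the 17 had passed. Over fits without 1 library, zfCTT over no_transgene ran from −0.048 to 0.26 for Traf3 and from −0.19 to 0.16 for Traf6, and zfCTT over dCTT from −0.10 to 0.033 for Traf3 and from −0.049 to 0.30 for Traf6. In the same fits dCTT over no_transgene ran from −0.014 to 0.30 for Traf3 and from −0.31 to 0.21 for Birc3, and dCTT over mSTING from −0.30 to 0.035 for Traf2 and from −0.13 to 0.20 for Traf4. Without the pair, Traf3 was −0.048 and Traf6 0.12 in zfCTT over no_transgene, Traf2 was −0.037 in dCTT over no_transgene, and Traf4 was −0.076 in dCTT over mSTING. Under median-ratio scaling Traf6 was 0.000513 in zfCTT over no_transgene and Traf4 −0.014 in dCTT over mSTING. The cause was not tested. With 1 library left in a group, it was assumed to vary like the others. Traf5, Birc2 and Xiap, below 1 RPKM in most libraries, were left untested by the filter on RPKM. Their counts were 46 to 375, 95 to 304 and 110 to 1447 reads per library.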
